A study of Mus musculus with 9 samples.

Results

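The secretory pathway and unfolded protein response of the mouse prostate were followed in bulk RNA through 39 genes. These were picked by gene symbol from the deposited count table and make up 39 of its 54532 gene identifiers. All 39 passed the filter on low counts, which kept 16836 genes. Prostate was taken from males of 3 genotypes at Srd5a2, whose product is the type II 5-alpha-reductase that turns testosterone into dihydrotestosterone. The genotypes are homozygous null (Srd5a2-/-, KO), heterozygous (Srd5a2+/-, Het) and wild type (WT), with 3 libraries each. Het males were mated to WT C57BL6 females, and the KO males come from the third generation of that breeding. The allele is not described as limited to a cell type, and no group received an agent. Lobes and age were not stated in what was at hand, nor was whether the 3 libraries of a genotype come from separate animals, so that p-values measure the spread between these libraries, which may be technical.

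Proteins bound for secretion enter the endoplasmic reticulum (ER) through the Sec61 channel, fold with the help of chaperones and disulfide isomerases, and leave in COPII vesicles. Proteins that fail to fold are returned to the cytosol for degradation. When unfolded protein builds up, 3 sensors in the ER membrane respond. PERK slows translation and favours ATF4 and CHOP, IRE1 splices Xbp1 mRNA into the form that encodes an active factor, and ATF6 is cleaved into one. The prostate epithelium secretes large amounts of protein under androgen control and is rich in this machinery.

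The DNA element best known for tying these genes to ER stress is the ER stress response element (ERSE), and its occurrence is shown here as a description. The members were picked as genes of the response that this element serves, so its share among them is no independent evidence. ERSE was searched as CCAAT and CCACG separated by 9 bases, and ERSE-II as ATTGG and CCACG separated by 1 base, on both strands. The RefSeq promoters searched run from 250 bases before to 50 after the start site on GRCm38.p6. Of the 39 members 30 had an entry, and 10 of these (33.33%) held ERSE or ERSE-II, against 49 of 27025 genes (0.181%). ERSE alone was in 8 of 30 members (26.67%) and 37 of 27025 genes (0.137%), and ERSE-II in 2 of 30 members (6.67%) and 12 of 27025 genes (0.0444%). The 150 bases before the start site follow for 4 of these 10 genes, whose levels are described below, and for Ddit3, which had none of the motifs searched. They are given 5′ to 3′ on the plus strand, which is the strand of all 5 genes, at chr8:94386279-94386428 (Herpud1), chr19:6046426-6046575 (Syvn1), chr2:34771940-34772089 (Hspa5), chr15:88819496-88819645 (Creld2) and chr10:127290643-127290792 (Ddit3). Capitals mark the fixed letters of the motifs, which in Creld2 lie on the minus strand and so read in reverse complement.
Herpud1: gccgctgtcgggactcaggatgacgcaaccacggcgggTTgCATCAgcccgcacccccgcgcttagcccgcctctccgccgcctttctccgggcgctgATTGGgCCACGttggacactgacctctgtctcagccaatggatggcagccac
Syvn1: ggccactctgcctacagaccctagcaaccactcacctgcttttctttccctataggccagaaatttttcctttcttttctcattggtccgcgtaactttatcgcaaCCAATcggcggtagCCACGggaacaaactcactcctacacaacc
Hspa5: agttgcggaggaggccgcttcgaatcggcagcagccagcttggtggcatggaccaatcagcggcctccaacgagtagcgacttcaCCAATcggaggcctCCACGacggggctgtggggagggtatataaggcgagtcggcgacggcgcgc
Creld2: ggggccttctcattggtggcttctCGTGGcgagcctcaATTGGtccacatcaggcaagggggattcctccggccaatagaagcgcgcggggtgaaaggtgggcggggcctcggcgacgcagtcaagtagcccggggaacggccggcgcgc
Ddit3: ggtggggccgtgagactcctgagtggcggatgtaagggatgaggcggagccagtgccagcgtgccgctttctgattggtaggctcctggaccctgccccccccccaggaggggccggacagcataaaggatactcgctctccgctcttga
In Herpud1 the first capitals are an ATF4-CHOP element (TGATG, any base, AA) on the minus strand. The other 6 genes with a motif are shown as the site with 10 bases on each side, read along the motif: Calr at chr8:84847065-84847103, plus strand. Hsp90b1 had one on each strand, at chr10:86705628-86705666 on the minus strand and chr10:86705523-86705561 on the plus strand. Canx lies at chr11:50325790-50325828 on the minus strand, Pdia6 at chr12:17266481-17266519, Dnajc3 at chr14:118937817-118937855 and Dnajb11 (ERSE-II) at chr16:22857842-22857872, these 3 on the plus strand.
Calr: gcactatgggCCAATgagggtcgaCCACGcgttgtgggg
Hsp90b1, farther site: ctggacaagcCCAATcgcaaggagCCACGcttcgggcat
Hsp90b1, nearer site: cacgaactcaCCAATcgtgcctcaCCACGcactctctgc
Canx: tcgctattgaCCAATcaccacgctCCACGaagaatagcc
Pdia6: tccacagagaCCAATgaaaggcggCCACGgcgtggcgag
Dnajc3: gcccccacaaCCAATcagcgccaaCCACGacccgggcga
Dnajb11: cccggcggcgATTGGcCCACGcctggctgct
The XBP1 element TGACGTGG was found in 2 of 30 members (Sec24d and Kdelr3) and 0.714% of genes, the ATF4-CHOP element in Herpud1 alone and 4.51% of genes, and the cAMP response element TGACGTCA in Ppp1r15a alone and 2.03% of genes. No site of one motif overlapped a site of another. Manf, Derl1, Kdelr2, Atf6, Creb3l1, Sec61a1, Hyou1, Lman1 and Tram1 had no promoter entry. A match is a run of letters and says nothing of which factor binds there. Only exact matches counted, so a gene without one may hold a near match. The Ddit3 stretch holds cgtgccgctttctgattgg, which is 1 letter off an ERSE read in reverse complement.

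Libraries held 16233392 to 24017791 counts. Levels are given as CPM, counts scaled to a common library total after TMM normalisation, always for libraries 1, 2 and 3 in that order. Srd5a2 itself stood at 0.934, 0.512 and 1.15 CPM in KO, 3.68, 5.19 and 2.37 CPM in Het and 2.30, 5.50 and 8.81 CPM in WT. The KO libraries, labelled null, were the lowest 3, with a log2 fold change against WT of -2.67 ± 0.62 (SE), although edgeR's quasi-likelihood test gave an adjusted p of 0.9996. The luminal keratin Krt8 was present at 428 to 549 CPM in every library, and the luminal secretion gene Pbsn at 2508 to 13056 CPM. Sbp, which encodes a secreted protein of the prostate, was under 100 CPM in Het 2, WT 1 and WT 3 and at 34372 to 143989 CPM in the other 6 libraries, so these 3 libraries stand apart from the rest of their genotypes. WT 2 is the WT library that is left without them.

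The secretory genes as a set were lower in KO and in Het prostate than in WT, by small amounts, and no member passed the edgeR threshold of an adjusted p under 0.05 over all genes. Members were lower in KO than in WT for 38 of 39 genes, with a median log2 fold change of -0.28, where 49.4% of all genes tested were negative and their median was 0.01. Creb3l1 was the exception. Without WT 2 the KO median was -0.14 with 32 of 39 negative, and without the libraries low in Sbp it was -0.43 with 38 of 39 negative. In Het against WT, 30 of 39 were negative with a median of -0.35, or -0.24 without WT 2, beside 50.0% of all genes and a median of -0.0003. In KO against Het the set split into 19 negative and 20 positive, with a median of 0.03, beside 48.0% negative over all genes and a median of 0.02. In bulk tissue, fewer cells of a secretory type and less RNA per cell cannot be told apart. The comparisons with WT share the same 3 WT libraries, and KO against Het shares its libraries with both, so the 3 sets of counts are not independent.

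**Figure D1:**
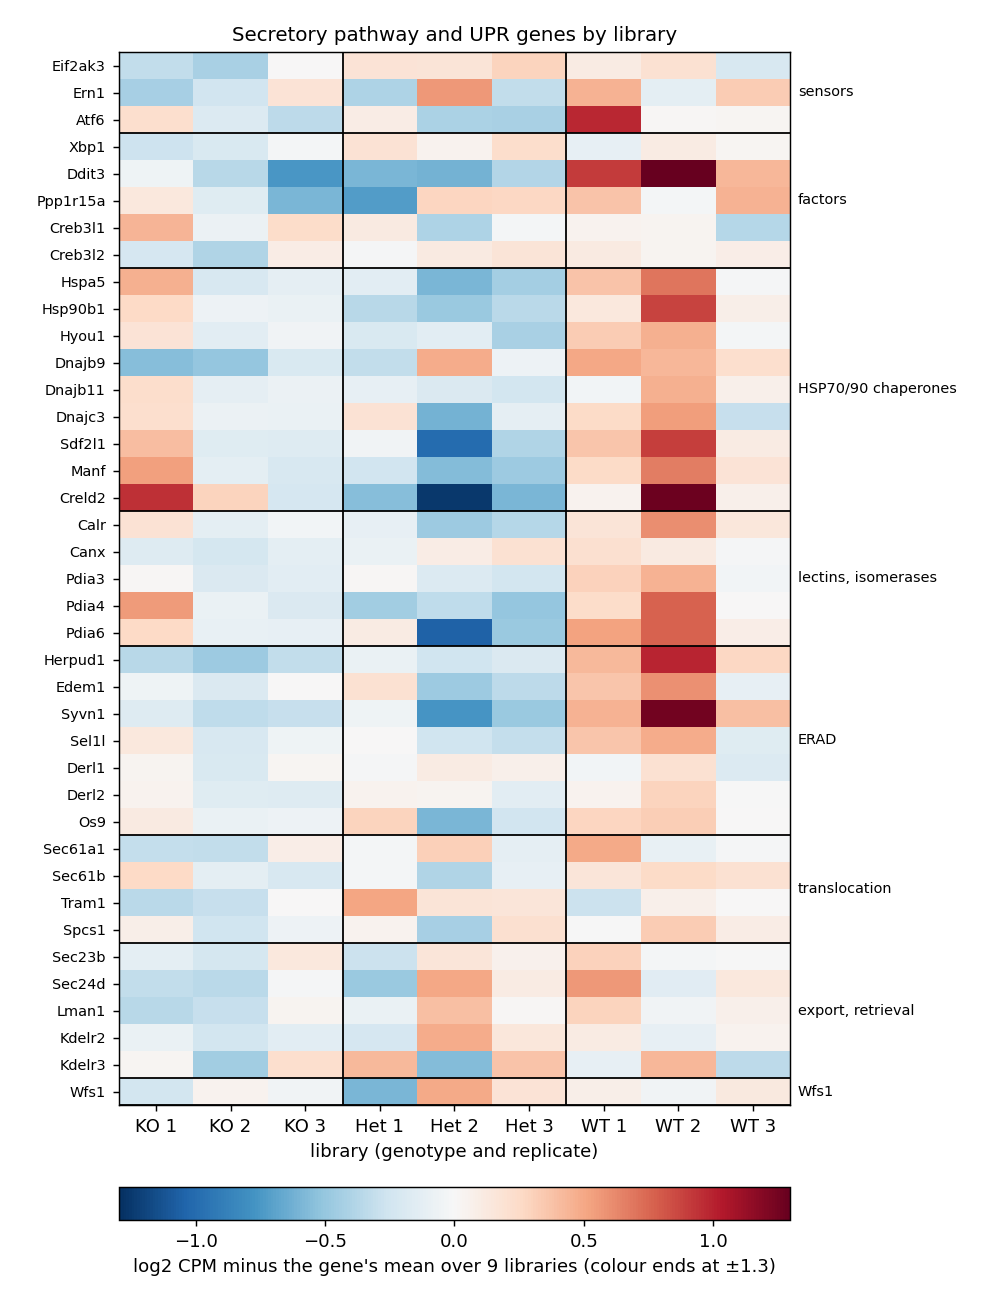
Each row is 1 member, each column 1 library, and the colour is the log2 CPM of the gene in that library minus its mean over the 9 libraries; lines part genotypes and roles. WT 2 holds the highest value of 22 of the 39 genes and Het 2 the lowest of 15, and most rows of the chaperone and degradation blocks are red in WT. How often these libraries hold the extreme over all genes was not computed.

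Of the 39 members edgeR called 0 in each of the 3 comparisons, as it did of all 16836 genes (0% in each). The lowest adjusted p among members was 0.9996 in KO against WT, 0.392 in Het against WT and 0.689 in KO against Het. DESeq2 called Herpud1 and Ddit3 in KO against WT (adjusted p = 0.0232 and 0.0275) among 15 genes, Ddit3 and Syvn1 in Het against WT (adjusted p = 0.00144 and 0.0191) among 206, and 0 members among 179 genes in KO against Het. limma voom called 0 genes in each comparison. With library quality weights it called 7 members among 699 genes in Het against WT and 0 genes in KO against WT and in KO against Het.

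At an unadjusted edgeR p under 0.05, 4 members were lower and 0 higher in KO than in WT, beside 1.37% and 2.20% of all genes. The same threshold in Het against WT gave 17 lower and 0 higher, beside 5.61% and 3.43% of all genes. In KO against Het 4 were lower and 3 higher, beside 1.81% and 4.42%. Every KO library lay below every WT library for 5 members and above for 0, beside 6.04% and 8.14% of all genes. The same count for Het against WT was 13 below and 1 above, beside 8.59% and 4.70%, and for KO against Het 5 below and 4 above, beside 4.12% and 7.80%. These counts move with single libraries. The 4 in KO against WT became 8 without KO 1, 7 without KO 3 and 8 without WT 3. The 17 in Het against WT became 7 without WT 2 and 11 without Het 3. In KO against Het the 4 lower members became 0 without KO 1 or KO 2, 1 without Het 3 and 2 without WT 2, and the 3 higher ones 0 without KO 1 or Het 2, 1 without Het 3 or WT 1 and 6 without Het 1.

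Transcripts of other tissues and cells also differed in level between the libraries. The 10 skeletal muscle markers, all tested, summed to 754 to 5274 CPM in KO, 144 to 662 CPM in Het and 342 to 1334 CPM in WT; all 10 were higher in KO than in WT in fold change and 0 of them had an unadjusted p under 0.05 there. Myh4 and Pvalb, fast-fibre genes, were at 0 in the 3 Het libraries, WT 1 and WT 2. With the muscle score as a covariate, chosen after seeing the data, 27 of 39 members were negative in KO against WT and the median was -0.07. The 8 plasma cell markers, of which 5 were tested, summed to 129 to 287 CPM in KO, 69.6 to 113 CPM in Het and 163 to 293 CPM in WT. Most of that is Derl3, itself a gene of ER degradation, except in KO 2, where the 4 others tested made up 129 of 238 CPM. Without Derl3 those 4 summed to 28.9 to 129 CPM in KO, 4.03 to 18.8 CPM in Het and 20.1 to 52.1 CPM in WT. All 5 tested were lower in Het than in WT and 3 had an unadjusted p under 0.05, and Tnfrsf17 and Pou2af1 were at 0 in every Het library. Zeros were not limited to Het. Of the 8 markers, 3 were at 0 in each Het library, 1, 2 and 3 in WT and 0, 1 and 1 in KO. With that score as a covariate 32 of 39 members were negative in Het against WT, 3 of them at an unadjusted p under 0.05, and without Derl3 in it 34 and 4. The 8 secretory luminal markers, all tested, summed to 7936 to 14146 CPM in KO, 4899 to 10358 CPM in Het and 11312 to 17142 CPM in WT, with Folh1 at 0 in Het 1; Pbsn, one of them, ranges as given above. Of the 8, 4 were positive in KO (median 0.02) and 3 in Het (median -0.01) against WT, with 1 and 2 lower at an unadjusted p under 0.05. Their mean log2 CPM relative to the 9-library mean was 0.39, 0.22 and 0.37 in KO, 0.0018, -0.68 and -0.24 in Het and -0.16, 0.43 and -0.33 in WT.

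Markers of blood vessels, macrophages and fibroblasts were all lower in Het than in WT in fold change. The 8 endothelial markers summed to 67.7 to 153 CPM in KO, 29.9 to 47.2 CPM in Het and 66.9 to 108 CPM in WT, with 8 of 8 negative in Het against WT (median -1.15, 4 at an unadjusted p under 0.05). The 8 macrophage markers summed to 69.1 to 109 CPM in KO, 39.7 to 60.0 CPM in Het and 73.8 to 106 CPM in WT, with 8 of 8 negative in Het against WT (median -0.89, 4 at that p). The 8 fibroblast markers summed to 925 to 1162 CPM in KO, 381 to 672 CPM in Het and 497 to 1012 CPM in WT. All 8 were negative in Het against WT (median -0.51, 0 at that p) and positive in KO against WT (median 0.41, 1 at that p). The 6 basal epithelial markers had medians of 0.41 in KO and -0.22 in Het against WT, and the 8 smooth muscle markers 0.03 and 0.11. Seminal vesicle transcripts, from 7 genes, made up 10.01% to 19.1% of counts in KO, 0.653% to 32.5% in Het and 3.31% to 21.1% in WT. With their score as a covariate, chosen after seeing the data, 34 of 39 members were negative in KO against WT (median -0.20) and 30 of 39 in Het against WT (median -0.38). The part of these cells in the differences was not tested beyond these values.

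None of the 3 sensors had an unadjusted p under 0.05 in KO against WT, and Atf6 did in Het against WT. Eif2ak3, which encodes PERK, measured 49.0, 45.9 and 61.6 CPM in KO, 69.5, 69.0 and 74.8 CPM in Het and 66.1, 70.3 and 53.2 CPM in WT. Every KO library lay below every Het library, at a log2 fold change of -0.45 ± 0.16 (unadjusted p = 0.02), and KO overlapped WT (-0.28 ± 0.16). Ern1, which encodes IRE1-alpha, measured 113, 129 and 173 CPM in KO, 116, 227 and 123 CPM in Het and 209.7, 140.3 and 193 CPM in WT. Its 3 genotypes overlapped, with Het 2 highest, and the log2 fold change was -0.39 ± 0.28 in KO and -0.22 ± 0.28 in Het against WT. Atf6 measured 141, 107 and 95.7 CPM in KO, 129, 90.6 and 90.5 CPM in Het and 239, 122 and 123 CPM in WT. WT 1 was far above the other 8 libraries, which overlap between genotypes. The log2 fold change was -0.49 ± 0.28 in KO and -0.64 ± 0.28 in Het against WT (unadjusted p = 0.112 and 0.0471), and without WT 1 it was -0.10 in KO and -0.25 in Het.

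Downstream of the sensors, Ddit3 was the member with the lowest levels relative to WT in both mutants. It encodes CHOP, the factor linked to cell death under prolonged ER stress. Ddit3 measured 20.3, 16.4 and 12.5 CPM in KO, 14.1, 13.8 and 16.2 CPM in Het and 39.8, 56.9 and 28.5 CPM in WT. All 6 KO and Het libraries lay below all 3 WT libraries, and KO and Het overlapped each other. The means were 16.4 ± 3.91 CPM in KO, 14.7 ± 1.32 CPM in Het and 41.7 ± 14.3 CPM in WT (SD, n = 3 each). The log2 fold change was -1.35 ± 0.28 in KO against WT (unadjusted p = 0.000662, 95% interval -1.96 to -0.73) and -1.51 ± 0.28 in Het against WT (unadjusted p = 0.000299). Ddit3 shares 68 exon bases with Mars on the opposite strand, which had 14878 counts against 4346 for Ddit3, and with strandedness unknown reads from that stretch cannot be assigned to either. A second identifier named Ddit3 in the table had 0 counts.

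Xbp1 mRNA, the substrate of IRE1, measured 225, 235 and 266 CPM in KO, 308, 279.9 and 317 CPM in Het and 252, 292 and 275 CPM in WT. KO lay below Het in every library, at -0.32 ± 0.13 on the log2 scale (unadjusted p = 0.0388), while both overlapped WT. Gene counts do not show which share of Xbp1 is spliced. Ppp1r15a, which encodes the GADD34 subunit that restores translation after PERK has slowed it, had log2 fold changes of -0.46 in KO and -0.27 in Het against WT. The membrane-bound factors Creb3l1 and Creb3l2, which support secretory capacity, had 0.30 and -0.23 in KO against WT, and -0.0013 and 0.01 in Het against WT. All 3 overlapped between genotypes.

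**Figure D2:**
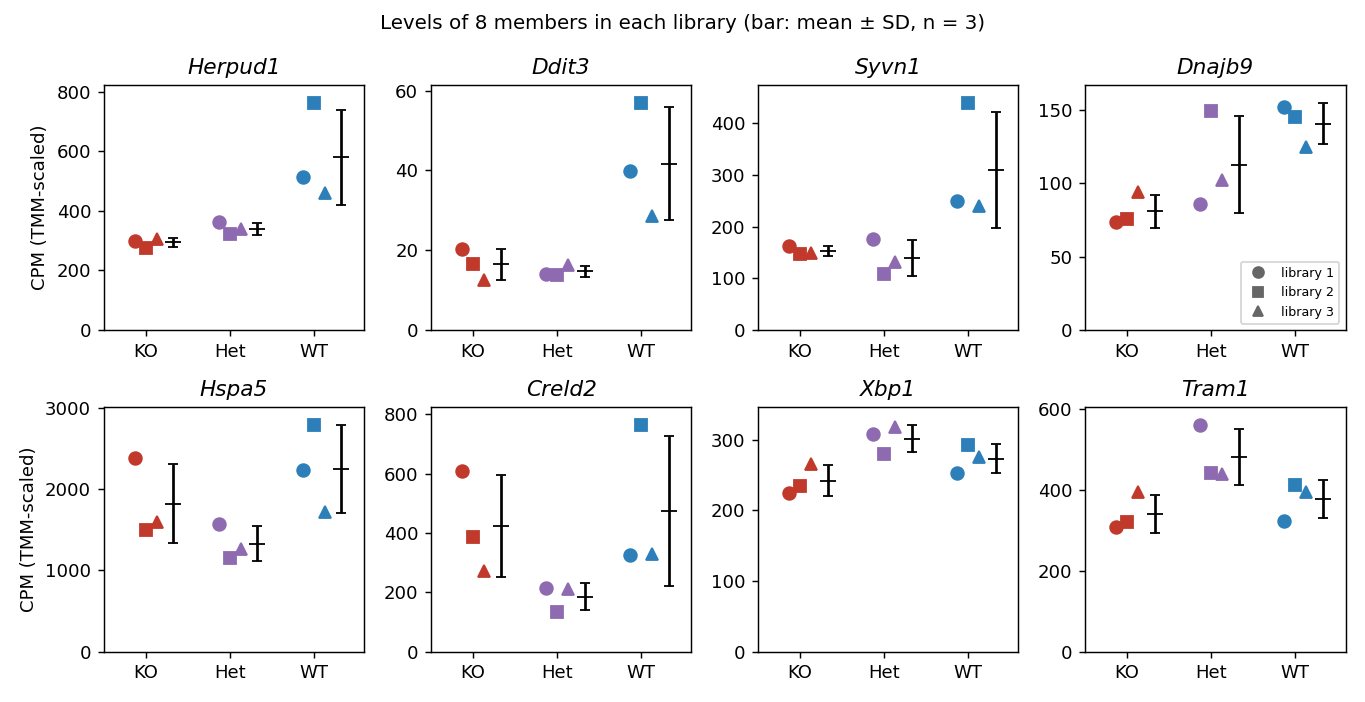
Each panel plots 1 gene in CPM (TMM-scaled) from 0, with KO, Het and WT from left to right; symbols are libraries 1 to 3 and the bar is mean ± SD (n = 3). Herpud1, Ddit3 and Syvn1 are lower in all 6 KO and Het libraries than in any WT library, Dnajb9 in all 3 KO libraries, Creld2 and Hspa5 in all 3 Het libraries, and Xbp1 and Tram1 are higher in Het than in KO.

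The chaperones of the HSP70 and HSP90 system and their co-factors had a more negative median against WT in Het than in KO. All 9 fold changes were negative in both comparisons, with a median log2 fold change of -0.27 in KO (1 of 9 at an unadjusted p under 0.05) and -0.76 in Het (6 of 9). Lower at that p were 1.37% of all genes in KO and 5.61% in Het. The mean log2 CPM of the 9 relative to the 9-library mean was 0.30, -0.12 and -0.13 in KO, -0.20, -0.48 and -0.34 in Het and 0.24, 0.70 and 0.04 in WT, so KO 1 lay above WT 1 and WT 3. KO against Het was positive for 8 of 9 (median 0.45). Hspa5, which encodes BiP, the main HSP70 of the ER lumen, measured 2377, 1491 and 1588 CPM in KO, 1564, 1147 and 1266 CPM in Het and 2228, 2788 and 1712 CPM in WT. Het lay below WT in every library, at -0.76 ± 0.25 (unadjusted p = 0.0118), whereas KO overlapped both, with KO 1 at the WT level. Hsp90b1, the ER HSP90 also called GRP94, measured 920.2, 734 and 726 CPM in KO, 597, 549 and 602 CPM in Het and 842, 1408 and 809 CPM in WT. Its Het libraries lay below all others, at -0.81 ± 0.22 against WT (unadjusted p = 0.00489), and KO lay above Het at 0.45 ± 0.22 (unadjusted p = 0.0738). Hyou1, which helps BiP exchange its nucleotide, measured 442, 356 and 379 CPM in KO, 342, 356 and 293 CPM in Het and 493, 539.7 and 384 CPM in WT. It too was lower in Het than in WT in every library, at -0.52 ± 0.17 (unadjusted p = 0.0126).

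Dnajb9 was the member of this group that was negative in KO against Het. It encodes ERdj4, a J-protein that brings BiP to misfolded clients and to IRE1. Dnajb9 measured 73.2, 75.4 and 93.7 CPM in KO, 85.8, 149 and 102 CPM in Het and 152, 145 and 125 CPM in WT. The KO libraries were below every WT library, at -0.80 ± 0.21 (unadjusted p = 0.00335), and lower than Het at -0.48 ± 0.21 (unadjusted p = 0.0437), with KO 3 above Het 1. Het 2 was at the WT level, and Het against WT was -0.32 ± 0.21. The other J-proteins, Dnajb11 and Dnajc3, had -0.16 and -0.18 in KO and -0.36 and -0.35 in Het against WT, and Dnajb11 was lower in every Het library than in any WT library.

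The small secreted or luminal stress proteins Creld2, Manf and Sdf2l1 were lower in every Het library than in any WT library. Creld2, a luminal protein with disulfide isomerase activity, measured 610.1, 385 and 272 CPM in KO, 215, 133 and 209.9 CPM in Het and 325, 764 and 331 CPM in WT. Every Het library lay below every KO and every WT library, at -1.35 ± 0.41 against WT (unadjusted p = 0.0094) and -0.77 without WT 2, while KO and WT overlapped, with KO 3 below every WT library and WT 2 above every KO library. KO against Het was 1.19 ± 0.41 (unadjusted p = 0.0176), the highest of the 39 members, and KO against WT was -0.16 ± 0.40, positive (0.40) without WT 2. Manf, a secreted factor that binds BiP, measured 546, 346 and 328 CPM in KO, 319, 257 and 273 CPM in Het and 449, 599 and 428 CPM in WT. It shares exon bases with Dcaf1 and Rbm15b. Het lay below both other genotypes, at -0.80 ± 0.22 against WT (unadjusted p = 0.00535) and with KO at 0.52 ± 0.22 against Het (unadjusted p = 0.0414). Sdf2l1, a partner of the J-proteins, measured 228, 155 and 154 CPM in KO, 167, 86.5 and 131 CPM in Het and 221, 321 and 186 CPM in WT. Het was below WT in every library, at -0.92 ± 0.28 (unadjusted p = 0.00921), and overlapped KO.

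All 5 lectin chaperones and disulfide isomerases were negative in KO (median -0.31) and in Het (median -0.63) against WT, and 4 of 5 were positive in KO against Het (median 0.32). Calr, the soluble lectin chaperone calreticulin, measured 1497, 1209 and 1283 CPM in KO, 1226, 948 and 1015 CPM in Het and 1484, 2003 and 1461 CPM in WT. Het was below WT in every library, at -0.63 ± 0.19 (unadjusted p = 0.00687), and KO overlapped both. Canx, its membrane-bound counterpart calnexin, was lower in every KO library than in any Het or WT library, at -0.28 against WT and -0.25 against Het, while Het against WT was -0.03. Pdia3, the isomerase that works with these lectins, measured 889.9, 772 and 798 CPM in KO, 889, 775 and 746 CPM in Het and 1080, 1204 and 858 CPM in WT. KO against Het was 0.03 ± 0.17, and against WT it had -0.35 ± 0.17 in KO and -0.38 ± 0.17 in Het (unadjusted p = 0.0608 and 0.0454), with KO 1 and Het 1 above WT 3.

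Pdia4, an isomerase with several active domains, measured 438, 279.9 and 262 CPM in KO, 217, 237 and 209.8 CPM in Het and 353, 508 and 298 CPM in WT. Het was below every other library, at -0.80 ± 0.24 against WT (unadjusted p = 0.00816), and KO was higher than Het at 0.56 ± 0.24 (unadjusted p = 0.0438). Pdia6, an isomerase that also acts on the sensors, measured 1259, 987 and 977 CPM in KO, 1130, 506 and 755 CPM in Het and 1509, 1784 and 1118 CPM in WT. Het 2 and Het 3 were low and Het 1 reached WT 3, with -0.88 ± 0.29 in Het against WT (unadjusted p = 0.0124) and -0.45 ± 0.29 in KO against WT. Pdia6 shares 50 exon bases with Atp6v1c2 on the opposite strand.

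The 7 genes of ER-associated degradation had medians of -0.29 in KO and -0.44 in Het against WT, with 7 and 6 of 7 negative. Of these 7, Herpud1 and Syvn1 were below WT in all 6 mutant libraries. Over all genes, 6.04% lay below WT in every KO library and 8.59% in every Het library. Herpud1, a membrane protein that organises the degradation complex, measured 298, 277 and 307 CPM in KO, 361, 321 and 338 CPM in Het and 514, 762 and 462 CPM in WT. The KO libraries were lowest, Het lay between, and every KO and Het library was below every WT library, with WT 2 far above the other two. The means were 294 ± 15.5 CPM in KO, 340.0 ± 20.4 CPM in Het and 579.5 ± 161 CPM in WT (SD, n = 3 each). The log2 fold change was -0.98 ± 0.19 in KO against WT (unadjusted p = 0.000467, 95% interval -1.41 to -0.55) and -0.77 ± 0.19 in Het against WT (unadjusted p = 0.00242), and without WT 2 it was -0.69 in KO and -0.47 in Het. KO against Het was -0.21 ± 0.19 (unadjusted p = 0.294), and the libraries of the 2 genotypes did not overlap.

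Syvn1 encodes HRD1, the ubiquitin ligase at the centre of that complex. It measured 163, 146 and 149 CPM in KO, 176, 108 and 132 CPM in Het and 250.2, 438.96 and 240.1 CPM in WT. All 6 KO and Het libraries were below all 3 WT libraries, at -1.02 ± 0.26 in KO (unadjusted p = 0.00261) and -1.16 ± 0.26 in Het (unadjusted p = 0.00112) against WT, and KO and Het overlapped. Without WT 2 these were -0.64 in KO and -0.77 in Het. Syvn1 shares 91 exon bases with Mrpl49 on the opposite strand. Sel1l, the adaptor that holds HRD1 in place, measured 219.8, 173 and 192 CPM in KO, 199.9, 167 and 161 CPM in Het and 257, 279 and 179 CPM in WT. The genotypes overlapped because WT 3 was low, with -0.29 ± 0.19 in KO and -0.44 ± 0.19 in Het against WT (unadjusted p = 0.153 and 0.0419). Edem1, a mannosidase-like protein that marks glycoproteins for disposal, measured 203, 186 and 213 CPM in KO, 243, 152 and 167 CPM in Het and 273, 321 and 197 CPM in WT. WT 3 lay among the KO and Het libraries, and the fold changes were -0.39 ± 0.22 in KO and -0.49 ± 0.22 in Het against WT (unadjusted p = 0.106 and 0.0497).

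The other 3 degradation members overlapped between genotypes. Derl1 and Derl2, derlins of the retrotranslocation channel, had -0.05 and -0.21 in KO and 0.05 and -0.13 in Het against WT. Os9, a lectin that delivers clients to HRD1, had -0.22 in KO and -0.35 in Het against WT. Derl1 had the narrowest range of the 39 members, 1.31-fold between its lowest and highest library, and Creld2 the widest, 5.76-fold.

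Leaving out WT 2 also shrank the Het against WT fold changes of other members described here by over 1.5 times. Among these were Calr (to -0.42), Hsp90b1 (-0.45), Pdia4 (-0.50), Sdf2l1 (-0.61), Sel1l (-0.25), Edem1 (-0.27), Pdia3 (-0.21) and Dnajb11 (-0.14). For KO against Het, Dnajb9 was -0.23 without Het 2, and without KO 1 Manf was 0.26 and Pdia4 0.29.

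Of the 4 genes of translocation and signal peptide cleavage, 4 were negative in KO (median -0.22) and 3 in Het (median -0.13) against WT. Sec61a1, the pore of the translocon, measured 246, 244 and 324 CPM in KO, 299, 378 and 281 CPM in Het and 429.6, 285 and 301 CPM in WT. The genotypes overlapped around the high WT 1, with -0.32 ± 0.21 in KO and -0.09 ± 0.21 in Het against WT. Sec61b, a small subunit beside the pore, measured 282, 216 and 205 CPM in KO, 233, 180.0 and 219.9 CPM in Het and 264, 281 and 271 CPM in WT. Het was below WT in every library, at -0.37 ± 0.16 (unadjusted p = 0.0477), and KO 1 was as high as WT 2, giving -0.21 ± 0.16 in KO against WT.

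Tram1 was the only member higher in every Het library than in any WT library. It encodes a membrane protein that aids the passage of some signal sequences. Tram1 measured 308, 319.9 and 394 CPM in KO, 559.8, 440.4 and 439.13 CPM in Het and 323, 411 and 395 CPM in WT. Het against WT was 0.35 ± 0.17 (unadjusted p = 0.0672), KO overlapped WT, and KO was below Het in every library at -0.49 ± 0.17 (unadjusted p = 0.0162). Spcs1, a subunit of the signal peptidase that shares 252 exon bases with Glt8d1, had -0.22 in KO and -0.18 in Het against WT.

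The 5 genes of ER export and retrieval were all negative in KO against WT (median -0.17) and in KO against Het (median -0.32), with 0 of them at an unadjusted p under 0.05 by edgeR. Against WT, 2 of 5 log2 fold changes of Het were negative and the median was 0.01. Lman1, the cargo receptor ERGIC-53 that carries glycoproteins to the Golgi, measured 163, 169.9 and 214 CPM in KO, 197, 274 and 212 CPM in Het and 257, 203 and 219.8 CPM in WT. KO 3 lay inside the range of the other genotypes and KO 1 and KO 2 below it, at -0.31 ± 0.18 against WT (unadjusted p = 0.106). The COPII coat genes Sec23b and Sec24d had -0.16 and -0.43 in KO and -0.11 and -0.12 in Het against WT. Kdelr2 and Kdelr3, receptors that return chaperones from the Golgi, had -0.17 and -0.08 in KO and 0.15 and 0.11 in Het. Wfs1, the ER membrane protein wolframin involved in calcium handling, measured 38.6, 46.8 and 44.1 CPM in KO, 30.1, 64.0 and 51.5 CPM in Het and 48.0, 44.1 and 49.8 CPM in WT. The Het libraries held both its lowest and its highest value, and its log2 fold change was -0.13 ± 0.24 in KO and 0.04 ± 0.24 in Het against WT.

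**Figure D3:**
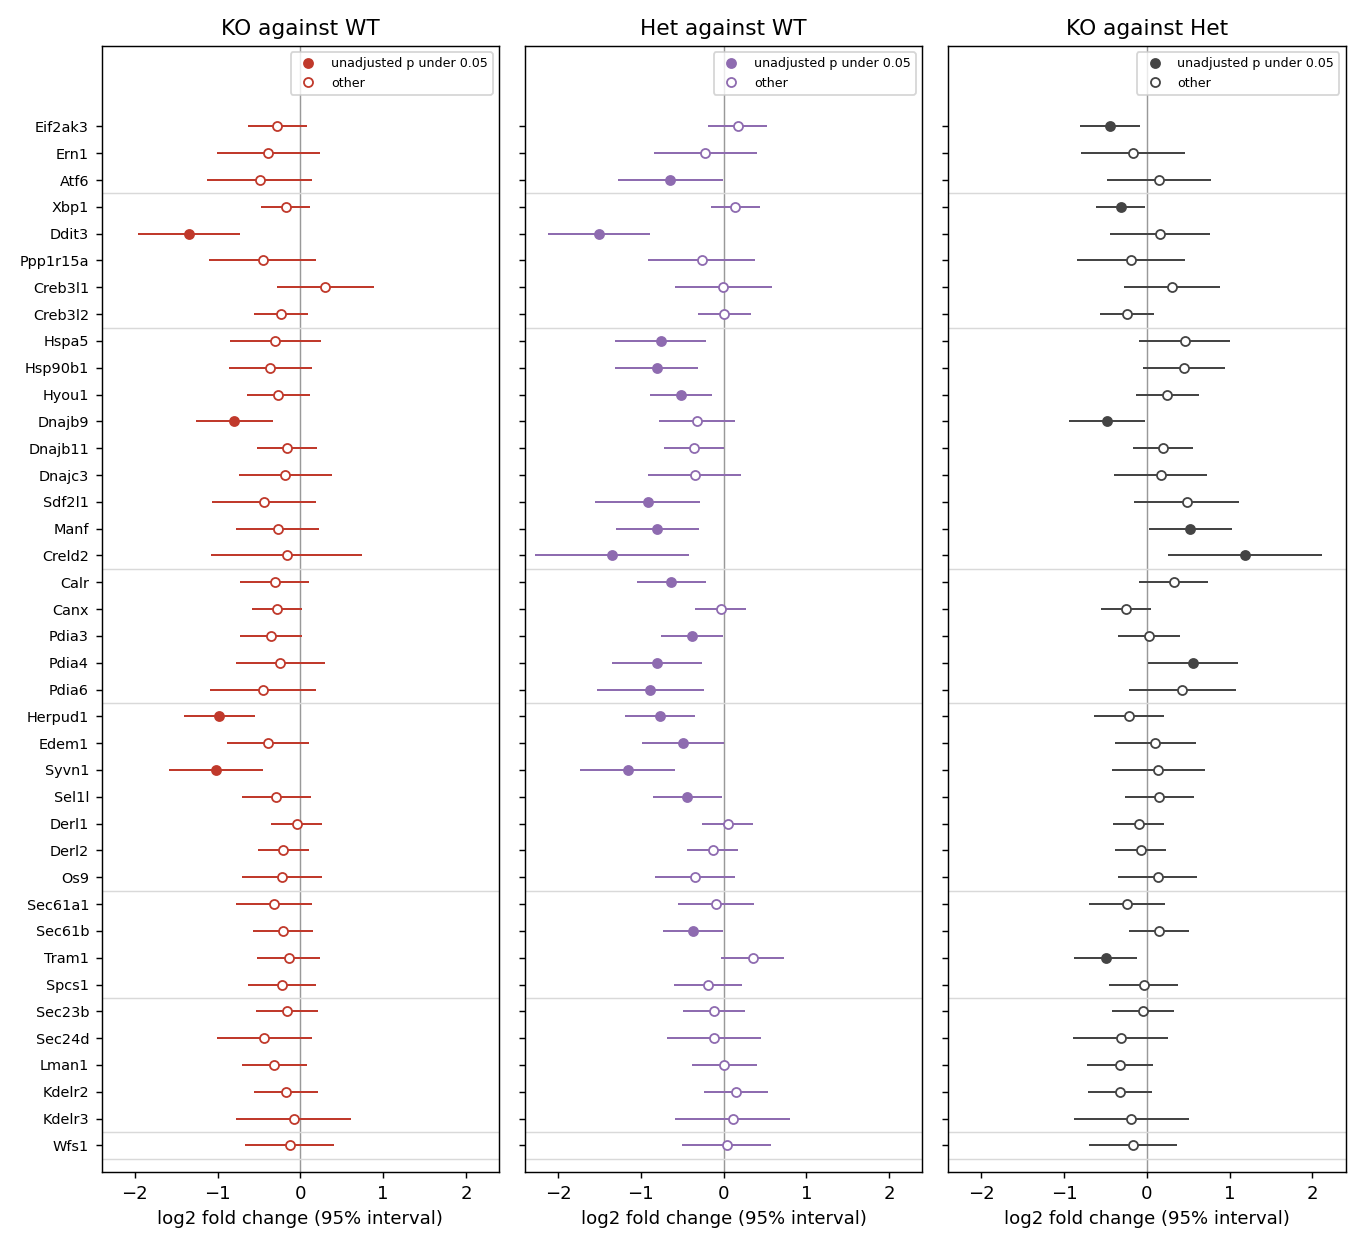
Points are log2 fold changes of the 39 members with 95% intervals from edgeR, with KO against WT at left, Het against WT in the middle and KO against Het at right, in the same order of roles as the colour map; filled points have an unadjusted p under 0.05. In Het against WT the filled points are all negative, where 5.61% of all genes were lower at that p. Of these 17, 14 are chaperones, isomerases or degradation genes. Those roles already hold 9 (HSP70 and HSP90 system), 5 (lectins and isomerases) and 7 (degradation) of the 39 members.

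Sorted by sensor branch from textbook knowledge, with earlier results of these data known, the ATF6 group had the most negative median in Het against WT. In KO against WT the PERK group had it, but the ATF6 group did without WT 3 (-0.46, PERK -0.39), without the libraries low in Sbp (-0.62, PERK -0.43) and with voom quality weights (-0.45, PERK -0.42). The ATF6 group (Atf6, Hspa5, Hsp90b1, Hyou1, Calr, Pdia4, Herpud1, Creld2, Manf, Sdf2l1 and Sel1l) had a median log2 fold change of -0.77 in Het against WT. There 11 of 11 were negative and 11 of 11 had an unadjusted p under 0.05, beside 5.61% of all genes lower at that p. In KO against WT the ATF6 median was -0.30, again with 11 of 11 negative. Only 1 was at an unadjusted p under 0.05, beside 1.37% of all genes lower. In KO against Het the ATF6 median was 0.45, with 10 of 11 positive. The IRE1-XBP1 group (Ern1, Xbp1, Dnajb9, Dnajb11, Dnajc3, Edem1, Sec61a1, Sec61b, Derl1, Derl2 and Pdia6) had medians of -0.21 in KO and -0.32 in Het against WT, with 11 and 9 of 11 negative, and -0.07 in KO against Het. The PERK group has 3 genes (Eif2ak3, Ddit3 and Ppp1r15a), with medians of -0.46 in KO and -0.27 in Het against WT and -0.19 in KO against Het. Many genes answer to more than 1 sensor, so the groups are not separate pathways. Not every member was placed in a group. Among those left out were Canx (-0.03 in Het against WT) and Syvn1 (-1.16).

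Per library, the mean log2 CPM of a branch relative to the 9-library mean shows how far this rests on samples. For ATF6 it was 0.32, -0.13 and -0.16 in KO, -0.19, -0.52 and -0.41 in Het and 0.33, 0.70 and 0.06 in WT. All 3 Het libraries were below all KO and WT libraries, and KO 1 was level with WT 1. For PERK it was -0.08, -0.31 and -0.45 in KO, -0.38, -0.05 and 0.06 in Het and 0.46, 0.53 and 0.23 in WT, with every KO and Het library below every WT library. For IRE1-XBP1 it was -0.05, -0.20 and -0.05 in KO, -0.02, -0.11 and -0.15 in Het and 0.24, 0.31 and 0.03 in WT, the same separation by a narrow margin. Of the PERK genes only Ddit3 showed that separation by itself. Ppp1r15a and Eif2ak3 overlapped WT, and Eif2ak3 was positive in Het against WT (0.17). The wider list of 10 PERK-ATF4 output genes overlapped between genotypes, with WT 3 at -0.15 and KO 1 at 0.08. Export genes gave -0.17, -0.31 and 0.05 in KO, -0.13, 0.19 and 0.14 in Het and 0.23, 0.02 and -0.02 in WT, with overlap throughout. Without WT 2 the ATF6 median in Het against WT was -0.50 with 5 of 11 genes at an unadjusted p under 0.05, and in KO against WT -0.11. The KO median was -0.53 without KO 1, with 4 genes at an unadjusted p under 0.05, and -0.46 without WT 3. Without the libraries low in Sbp the ATF6 median was -0.62 in KO and -1.02 in Het against WT. The only WT library left there is WT 2, whose ATF6 value is the highest of all. With the plasma cell score as a covariate the Het median was -0.52 with 1 gene, and with the muscle score the KO median was 0.03 with 4 of 11 negative.

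**Figure D4:**
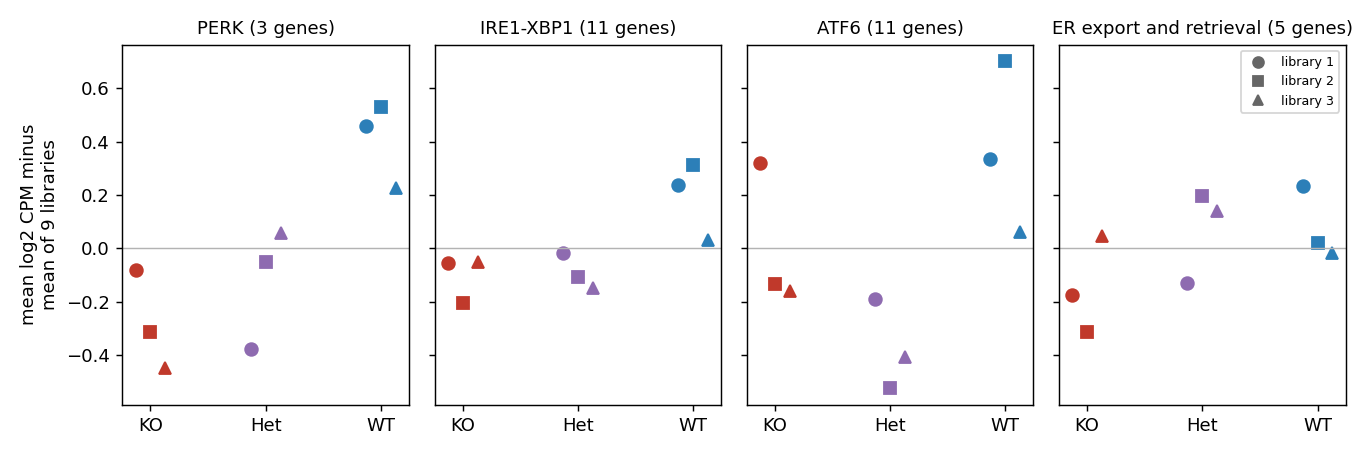
Each point is 1 library; the vertical axis is the mean over a group's genes of log2 CPM minus the gene's 9-library mean, for PERK (3 genes), IRE1-XBP1 (11), ATF6 (11) and ER export and retrieval (5), with KO, Het and WT from left to right. Het libraries are lowest for ATF6, while WT libraries are highest for PERK and IRE1-XBP1 and the export panel overlaps.

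Read against the promoter letters, the 10 members with ERSE or ERSE-II were lower in Het than in WT by a median log2 fold change of -0.76. There 10 of 10 were negative, 7 of them at an unadjusted edgeR p under 0.05. The 20 with a promoter entry and neither motif had a median of -0.24, with 15 of 20 negative and 7 lower at that p. Over all genes 5.61% were lower at that p. Members without a promoter entry are in neither group. In KO against WT the medians were close, -0.31 with and -0.26 without, and in KO against Het they were 0.26 and -0.06. Canx, which holds an ERSE, was the member of the 10 nearest to WT in Het (-0.03). Ddit3, which holds no exact match of either motif but a near match of ERSE, was the one of the 20 farthest (-1.51).

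Levels between genes can be set side by side on the deposited FPKM scale, which divides by gene length. Calr and Hspa5 were the most abundant members in WT. Calr averaged 451 ± 46.4 FPKM in KO, 368 ± 51.8 FPKM in Het and 559 ± 103 FPKM in WT (SD, n = 3 each). Hspa5 averaged 419 ± 108 FPKM in KO, 313 ± 52.0 FPKM in Het and 517 ± 122 FPKM in WT. The lowest was the factor Creb3l1, at 4.86 ± 0.822 FPKM in KO, 4.03 ± 0.720 FPKM in Het and 3.94 ± 0.596 FPKM in WT. Together the 39 members summed to 14379, 11368 and 11951 CPM in KO, 12321, 10195 and 10764 CPM in Het and 15489, 18858 and 13156 CPM in WT, so that KO 1 was above WT 3. No WT library held the lowest value of any member, and the matching share over all genes was not computed.

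A wider list of 111 further genes of the same pathway was also mostly negative in KO against WT. Of these 110 were in the table and 109 were tested, and 0 were called by edgeR in any comparison. In KO against WT 101 were negative and 8 positive, with a median of -0.16, 5 lower and 0 higher at an unadjusted p under 0.05, and 21 lower in every library, beside 1.37%, 2.20% and 6.04% of all genes. For Het against WT, 72 were negative, 15 lower and 0 higher, with a median of -0.10, beside 5.61% lower and 3.43% higher of all genes. Between KO and Het 71 were negative, 5 lower and 3 higher, with a median of -0.07, beside 1.81% lower and 4.42% higher.

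Vesicle coat and glycan transfer genes were negative throughout in KO against WT. All 16 COPII and cargo receptor genes were negative in KO against WT (median -0.16) and in KO against Het (median -0.12), and 11 of 16 in Het against WT (median -0.04). All 9 COPI and retrieval genes were negative in KO against WT (median -0.17), 5 of 9 in Het against WT and 8 of 9 in KO against Het. The oligosaccharyltransferase, which attaches glycans, had 11 of 11 negative in KO against WT (median -0.19), 9 of 11 in Het against WT and 7 of 11 in KO against Het. Signal recognition, translocon and signal peptidase genes were negative for 17 of 19 in KO against WT (median -0.15), 10 of 19 in Het against WT and 12 of 19 in KO against Het.

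Other chaperones, isomerases and glycan trimming enzymes were negative for 18 of 20 in KO against WT (median -0.19), 17 of 20 in Het against WT (median -0.22) and 9 of 20 in KO against Het. Other degradation genes were negative for 14 of 14 in KO against WT (median -0.10), 7 of 14 in Het against WT and 8 of 14 in KO against Het. The PERK-ATF4 output genes were negative for 8 of 10 in KO against WT (median -0.37), 7 of 10 in Het against WT (median -0.33) and 4 of 10 in KO against Het. Other regulators of the response were negative for 8 of 10 in KO against WT (median -0.10), 6 of 10 in Het against WT and 7 of 10 in KO against Het.

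The 5 genes of these lists at an unadjusted p under 0.05 in KO against WT come from different steps. Atf4, the factor translated when PERK is active, had -0.45 ± 0.17 in KO and -0.45 in Het against WT (unadjusted p in KO = 0.025). Srp19, a part of the signal recognition particle, had -0.41 ± 0.15 in KO and -0.39 in Het (unadjusted p in KO = 0.0225). Prkcsh, the beta subunit of glucosidase II, had -0.38 ± 0.16 in KO and -0.34 in Het (unadjusted p in KO = 0.0338). The isomerase Pdia5 had -0.58 ± 0.26 in KO and -0.39 in Het (unadjusted p in KO = 0.0463). Mcfd2, the partner of Lman1 in cargo export, had -0.42 ± 0.18 in KO and -0.32 in Het (unadjusted p in KO = 0.0405). Their adjusted p by edgeR was 0.9996 in KO against WT.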

How the data were processed

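Per the labels' protocols, prostate RNA came from a Qiagen RNeasy kit and was selected for polyA. Reads were placed on GRCm38 (mm10), a build named in the submitters' processing notes. The sources used here name no aligner, counter or strand setting. Therefore reads from exons shared between opposite strands cannot be told apart. The authors deposited raw read counts per gene, with coordinates, and FPKM values per library, which they scaled by gene length and library total. Groups come from the library names in the labels, and replicate numbers follow accession order.

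All 9 libraries, with 16233392 to 24017791 counts each, entered 1 edgeR 4.0.16 quasi-likelihood fit (robust) in R 4.3.3 with genotype as the only factor, TMM scaling and the filterByExpr rule. Benjamini-Hochberg adjustment ran over the 16836 genes tested, with a threshold of 0.05. The SE of a log2 fold change is its size over the root of F, with 95% intervals. FPKM values were used only to compare levels between genes. Scores per library are means of log2 CPM (prior count 2) relative to the 9-library mean. Promoters are RefSeq's on GRCm38.p6, searched as plain letters. Exon overlaps are from GENCODE vM21. The fit was tested on simulated data.

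The members, the branch and pathway lists and the markers were chosen with earlier results of these data known, so no list was tested. Values in every library are given for Herpud1, Ddit3, Hspa5, Xbp1, the 3 sensors, every member with an unadjusted p under 0.05 in any comparison and the member of each role with the smallest p in KO against WT. Alternatives were DESeq2 1.42.0, limma 3.58.1 (voom, with and without quality weights), other scalings and filters, 2 genotypes at a time, each library left out, and 5 settings chosen after seeing the data: leaving out the libraries low in Sbp, or adding a skeletal muscle, seminal vesicle or plasma cell score (with or without Derl3) as a covariate.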

Additional observations from a re-analysis of the deposited data

How the results depend on the processing

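No paired analysis was possible because replicate numbers follow accession order and pair nothing. The precision is limited by 3 libraries per genotype, and WT 2 and Het 2 set many of the extremes. Over 23 alternatives and 25 named members, 1648 of 1725 log2 fold changes kept their sign and their side of the edgeR threshold, 17 passed it and 60 changed sign; where values changed, the cause was not tested. Herpud1, Ddit3, Dnajb9 and Syvn1 stayed negative against WT in KO under all 23. So did many members with smaller fold changes, among them Canx, Xbp1 and Tram1.

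Counts of genes called, 0 by edgeR, moved in KO against WT to 15 with DESeq2 (2 members), 1 with only the 2 genotypes compared and 0 to 1 with 1 library left out. For Het against WT they moved to 206 with DESeq2 (2 members), 699 with voom quality weights (7 members), 292 with the seminal vesicle score (4 members), 1 without the libraries low in Sbp, and 0 to 258 with 1 library left out (0 to 2 members), the 258 being without Het 1. In KO against Het they moved to 179 with DESeq2, 2 without a filter, 91 with the seminal vesicle score, 1 without the libraries low in Sbp and 0 to 18 with 1 library left out.

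Members lower at an unadjusted p under 0.05 in KO against WT, 4 by edgeR, were 23 with voom quality weights, 8 without the libraries low in Sbp, 2 with the muscle score and 4 to 8 with 1 library left out. In Het against WT, 17 became 3 with the plasma cell score, 4 with that score without Derl3 and 7 to 18 with 1 library left out; 1 was higher with a filter of 1 CPM, and 0 to 1 with 1 library left out. In KO against Het, 4 lower became 9 with voom quality weights, 2 with only the 2 genotypes compared, 2 without the libraries low in Sbp, 0 with the muscle score or either plasma cell score and 0 to 6 with 1 library left out. The 3 higher became 1 with DESeq2, 6 with voom quality weights, 6 with the muscle score, 9 with the seminal vesicle score, 0 with either plasma cell score and 0 to 6 with 1 library left out. The members' median in KO against WT was -0.065 with the muscle score, and in KO against Het 0.37 with the muscle and 0.28 with the seminal vesicle score.

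Some log2 fold changes of single members changed sign. In KO against WT, with the muscle score, they were Manf 0.034, Hspa5 0.18, Creld2 0.30, Pdia4 0.20, Sel1l 0.16, Hyou1 0.073 and Atf6 0.017, and Creld2 was 0.050 with the seminal vesicle score. With 1 library left out, values ran for Creld2 from -0.53 to 0.40 and Pdia4 from -0.51 to 0.044. For Het against WT, Sec61a1 was 0.018 and Wfs1 -0.12 without the libraries low in Sbp. Wfs1 was -0.017 with voom, -0.055 with the plasma cell score and -0.00050 with that score without Derl3. Lman1 was -0.052 with voom quality weights, -0.0073 with only the 2 genotypes compared, -0.024 with the muscle score, -0.043 with the plasma cell score and -0.0041 with that score without Derl3. The ranges with 1 library left out were Sec61a1 from -0.23 to 0.12, Wfs1 from -0.23 to 0.28 and Lman1 from -0.16 to 0.10.

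For KO against Het, the muscle score gave Herpud1 0.13 and Sec61a1 0.10. The plasma cell score gave Ddit3 -0.19, Pdia3 -0.21, Edem1 -0.13, Syvn1 -0.090, Sel1l -0.13, Hyou1 -0.058 and Atf6 -0.39, and without Derl3 Ddit3 -0.089, Pdia3 -0.17, Edem1 -0.074, Sel1l -0.078, Hyou1 -0.020 and Atf6 -0.35. Without the libraries low in Sbp the values were Edem1 -0.023, Syvn1 -0.0036, Ern1 0.22 and Wfs1 0.089. Pdia3 was -0.0012 with DESeq2 size factors and -0.0010 with DESeq2, and Ern1 0.047 with voom quality weights. Leaving out 1 library gave Ddit3 from -0.021 to 0.31, Pdia3 from -0.032 to 0.11, Sec61b from -0.0019 to 0.23, Edem1 from -0.045 to 0.33, Syvn1 from -0.025 to 0.35, Atf6 from -0.025 to 0.34, Ern1 from -0.36 to 0.20 and Wfs1 from -0.42 to 0.078.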

Other observations

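Creb3l4 and Nupr1, regulators linked to ER stress that are not among the 39 members, were lowest in the 3 libraries low in Sbp. Creb3l4 measured 18.1, 24.5 and 37.0 CPM in KO, 58.5, 3.03 and 25.0 CPM in Het and 4.50, 23.0 and 2.59 CPM in WT. Nupr1 measured 176, 74.1 and 128 CPM in KO, 422, 6.25 and 251 CPM in Het and 4.39, 231 and 5.91 CPM in WT. Those libraries are Het 2, WT 1 and WT 3. These genes were chosen after their values were seen.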
